A study of Mus musculus with 8 samples.

Results

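Hepcidin is the liver hormone that sets how much iron enters the blood, and 10 genes of its circuit were followed here in CDA-HFD–fed mice with and without Smo in hepatocytes. They are the hepcidin genes Hamp and Hamp2, the ligand gene Bmp6, the BMP response genes Id1 and Smad7, the transferrin receptor gene Tfrc, the transferrin gene Trf, the ferroportin gene Slc40a1 and the ferritin genes Fth1 and Ftl1. They were chosen by symbol, 10 of the 25239 symbols counted in every library, and all 10 passed the filter on low counts that left 12977 genes for testing.

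The livers came from 8 adult male mice carrying the Smo tm2Amc/J allele with both copies of Smo floxed, on a C57Bl6/J background. All ate the CDA-HFD, a choline-deficient diet with defined amino acids and high fat that brings on steatohepatitis, for 6 weeks. An AAV8 vector was given by tail vein 1 week before sacrifice, in which TBG, a hepatocyte promoter, drove luciferase in 4 control mice and Cre recombinase in 4 Smo-KO mice. GEO labels the control genotype as wild type, although its design text states that both groups were Smo flox/flox, so the groups differed in the vector's cargo. Bulk RNA-Seq of whole liver gave between 9177277 and 9999732 reads on genes in control livers and between 8203299 and 9543675 in Smo-KO livers. Levels are given in CPM, a library's counts divided by its size after edgeR's TMM scaling, and 3 reads correspond to between 0.297 and 0.366 CPM. Because whole liver was sequenced, fewer cells of a type and less RNA per cell cannot be told apart.

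Hepatocytes secrete hepcidin, which binds ferroportin, the only known exporter of iron from cells, and has it degraded, so that iron stays inside macrophages, hepatocytes and gut cells. Sinusoidal endothelial cells of the liver release BMP6 and BMP2 when iron is plentiful. These ligands act on BMP receptors of hepatocytes with the co-receptor hemojuvelin, and phosphorylated SMAD proteins then activate Hamp together with Id1, Smad6 and Smad7, while IL-6 raises Hamp through STAT3. Inside cells, iron regulatory proteins bind stem-loops of messenger RNA called iron-responsive elements when iron is scarce, which blocks translation of ferritin and ferroportin and keeps the transferrin receptor message stable. The second mouse gene, Hamp2, encodes a related peptide.

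The targeted gene was examined first. Smo stood at 8.17, 8.49, 8.74 and 8.21 CPM in control livers 1 to 4 and at 5.67, 3.93, 4.27 and 4.37 CPM in Smo-KO livers 1 to 4. Every Smo-KO liver was below every control liver, in the direction of the labels, with Smo-KO 1 nearest to the controls. Its log2 fold change was −0.88 (SE 0.16), with an edgeR adjusted p of 0.0957 and a DESeq2 adjusted p of 0.00613. Counts were given per gene for whole liver, so transcripts lacking only the floxed part and Smo RNA of other cell types could both contribute. The share of each was not tested. Across all genes the edgeR quasi-likelihood test called 0 of 12977 at an adjusted p under 0.05 (0.00%), and 1797 (13.8%) had an unadjusted p under 0.05. With a mouse left out, this unadjusted count ran from 1233 (without Smo-KO 3) to 2312 (without Smo-KO 1), and was 1935 without control 1. Counts for lists of genes below shift against this background. DESeq2 called 163 of the 11967 genes to which it gave an adjusted p (1.36%).

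The DNA before the 2 hepcidin genes is shown because these near-identical copies differed widely in level. Hamp occupies chr7:30942368-30944032 and Hamp2 chr7:30922372-30924681 of GRCm38 in GENCODE M21, both on the minus strand. The 250 bases before each start as RefSeq places it on GRCm38.p6 are chr7:30944030-30944279 for Hamp and chr7:30924182-30924431 for Hamp2. The sources differ on the start of Hamp2, so that its run lies before the RefSeq start but within the gene as GENCODE draws it. Capitals mark 2 motifs searched on both strands, GGCGCC, a core of BMP response elements, and TTCNNNGAA, the pattern that STAT proteins bind.
Hamp: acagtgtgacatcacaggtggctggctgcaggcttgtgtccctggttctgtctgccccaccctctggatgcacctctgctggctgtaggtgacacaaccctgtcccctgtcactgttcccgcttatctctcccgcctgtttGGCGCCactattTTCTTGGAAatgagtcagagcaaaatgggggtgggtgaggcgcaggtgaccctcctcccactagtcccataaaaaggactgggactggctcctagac
Hamp2: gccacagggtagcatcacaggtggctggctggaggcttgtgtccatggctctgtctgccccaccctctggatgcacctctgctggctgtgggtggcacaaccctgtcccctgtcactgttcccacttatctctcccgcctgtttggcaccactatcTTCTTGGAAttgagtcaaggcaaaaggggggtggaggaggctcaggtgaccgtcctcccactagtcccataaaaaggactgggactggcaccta
Over 247 aligned bases the runs were identical at 227 (91.9%). Hamp had GGCGCC with its first base 109 bases before the start and TTCNNNGAA 97 bases before it. Hamp2 had TTCNNNGAA 94 bases before its RefSeq start and no GGCGCC, since 1 of the 20 substitutions, G145A, falls within that motif, with positions counted from 1 at the 5′ end of the run printed for Hamp. Of all 32851 promoters of this length in the table, 9.59% held GGCGCC, 7.02% held TTCNNNGAA and 0.368% held both. Of the other genes of the circuit with an entry, Bmp6, Fth1 and Ftl1 held neither motif, and 1 of 2 promoters of Tfrc held GGCGCC, 89 bases before its start. Id1, Smad7, Trf and Slc40a1 had no entry in that table. A match of these letters describes the sequence and does not show a bound factor.

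Hamp differed more among mice than between the group means. It stood at 824, 604, 584 and 757 CPM in control livers 1 to 4 and at 684, 725, 868 and 844 CPM in Smo-KO livers 1 to 4. Control 1 and Smo-KO 3 and 4 were high and control 2 and 3 were low, and the groups overlapped. Means were 692 ± 117 CPM in control and 780 ± 89.9 CPM in Smo-KO livers (SD of 4 mice each). The log2 fold change of 0.17 (SE 0.13, 95% interval −0.10 to 0.45) did not pass the test (edgeR adjusted p = 0.574). Without control 1 it was 0.27, with an unadjusted edgeR p of 0.0468 and an adjusted p of 0.328. Without control 3 it was 0.10, with an unadjusted edgeR p of 0.442. With the short-gene level, a summary of short against long genes described below, as a covariate, it was −0.04. The exact permutation test (two-sided here and below, over all 70 ways to assign the mice) gave p = 0.286, where 0.0286 is the smallest p it can reach.

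Hamp2 was barely measured, with 8 to 34 reads per liver. Its level was 2.72, 2.73, 1.49 and 2.18 CPM in control livers and 3.51, 1.53, 0.976 and 1.92 CPM in Smo-KO livers. Smo-KO 1 was the highest and Smo-KO 3 the lowest of all 8 livers, so the Smo-KO group spanned the control group. On the log2 scale the difference was −0.17 (SE 0.35, 95% interval −0.93 to 0.59, edgeR adjusted p = 0.864). Averaged over the livers, Hamp had 346 times the CPM of Hamp2, whose exons are of similar length (410 and 437 bases). Hamp2 made up 0.330% ± 0.0851 of the reads on the pair in control and 0.265% ± 0.171 in Smo-KO livers (SD of 4 mice each, exact permutation p = 0.514). With a mouse left out that p ran from 0.0571, without Smo-KO 1, to 0.857, without Smo-KO 3. The share ran from 0.112% in Smo-KO 3 (95% Wilson interval 0.0569% to 0.221%) to 0.510% in Smo-KO 1 (0.365% to 0.712%). The intervals cover counting error only, and since the genes are near-identical copies, the way shared reads were counted may also move this share.

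**Figure D1:**
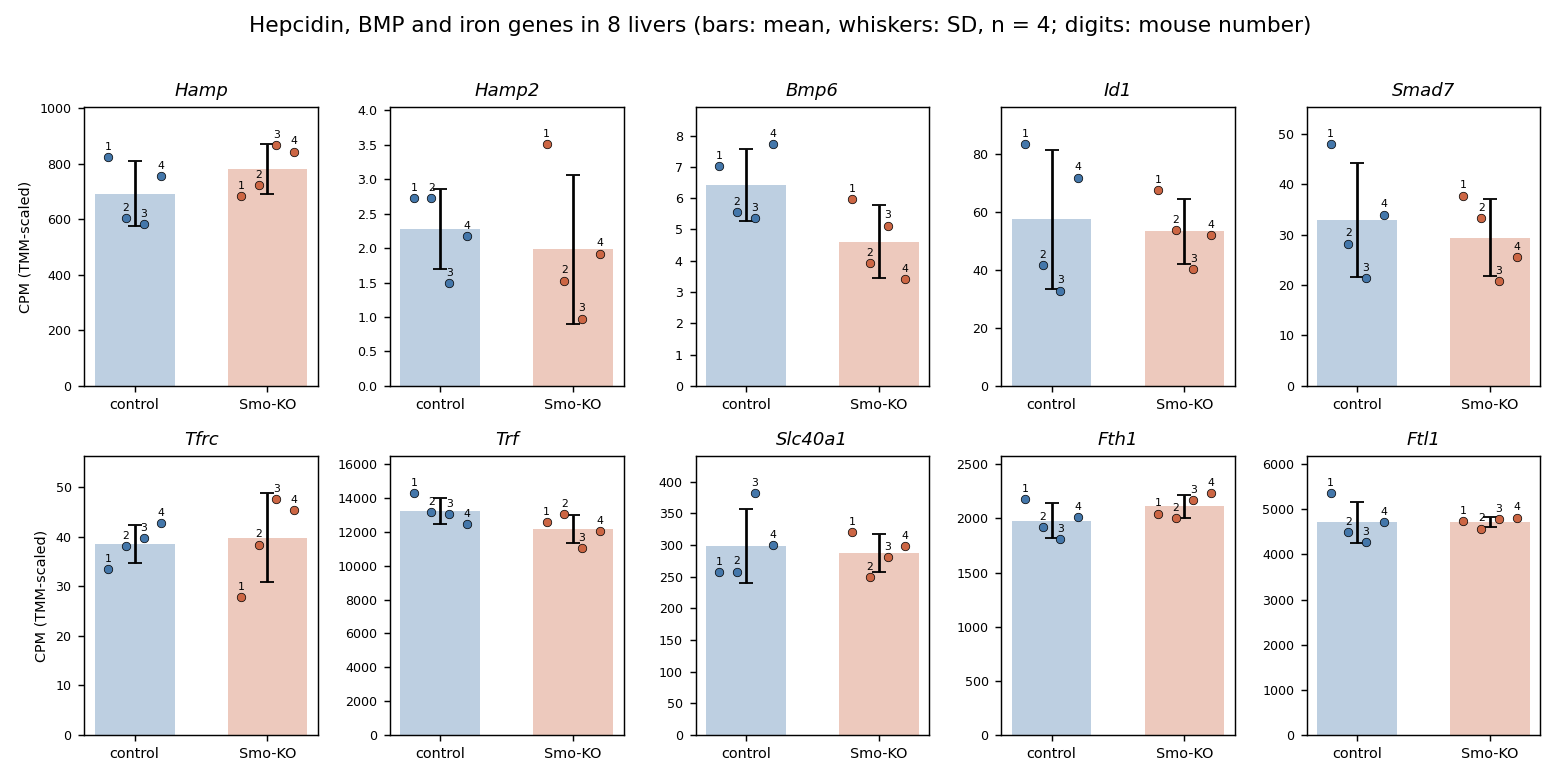
Levels of the 10 genes in CPM (vertical axes, linear from 0) in 4 control and 4 Smo-KO livers, with bars for means, whiskers for SD and points for single mice. The groups overlap in every panel, and Bmp6 has the largest relative gap between means, 6.42 against 4.61 CPM.

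Bmp6 gave the only unadjusted p under 0.05 among the 10 genes. This BMP ligand is known as the main iron-responsive signal to hepatocytes. It stood at 7.03, 5.56, 5.37 and 7.72 CPM in control livers and at 5.98, 3.93, 5.12 and 3.41 CPM in Smo-KO livers, from 32 to 78 reads per liver. Smo-KO 2, 3 and 4 were below all controls, whereas Smo-KO 1 was above control 2 and 3. The Smo-KO mean was 71.8% of the control mean, 4.61 ± 1.16 against 6.42 ± 1.14 CPM (SD of 4 mice each). In edgeR the log2 fold change was −0.48 (SE 0.21, 95% interval −0.93 to −0.02), with an unadjusted p of 0.0407 and an edgeR adjusted p of 0.336, so the difference did not pass the test. The exact permutation p was 0.114. Without control 1, control 4, Smo-KO 2 or Smo-KO 4 the unadjusted edgeR p was 0.0860, 0.131, 0.0997 and 0.123. One gene in 10 at an unadjusted p under 0.05 stood against 13.8% of all genes, and 0 of the 10 had groups that did not overlap, against 7.37%. The median log2 fold change of the 10 was −0.08, and that of all genes tested was −0.00.

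Bmp2, the other endothelial ligand for this circuit, was spread widely among Smo-KO livers. It stood at 17.0, 17.3, 18.4 and 16.8 CPM in control livers and at 19.1, 9.38, 11.0 and 15.0 CPM in Smo-KO livers. Smo-KO 1 was the highest of all 8 and the other 3 were below every control. The difference was a log2 fold change of −0.35 (SE 0.18, edgeR adjusted p = 0.420). Of 7 BMP ligand genes 5 were tested, and besides Bmp6 none had an unadjusted p under 0.05. Without Smo-KO 1 the count was 2 of the 5, where all genes at this threshold numbered 2312, against 1797 with all 8 mice. The ligand count was 0 without control 1, control 4 or Smo-KO 4, and with the short-gene level as a covariate. Bmp4 had a log2 fold change of 0.34 and Gdf2, which encodes the circulating ligand BMP9, one of 0.00. The level of Gdf2 was 36.4 ± 5.20 CPM in control and 36.5 ± 6.62 CPM in Smo-KO livers (SD of 4 mice each). Bmp7 and Bmp10 had at most 5 and 4 reads in any liver.

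Markers of sinusoidal endothelial cells, which make these ligands, were lowest in Smo-KO 2 and 3. Summed over 10 markers, they came to 332, 323, 364 and 374 CPM in control livers and to 418, 202, 268 and 343 CPM in Smo-KO livers. Smo-KO 2 and 3 were below every control and Smo-KO 1 was above all of them (exact permutation p for the groups 0.457). Of the 10 markers 9 had a negative log2 fold change, as did 6507 of all 12977 genes tested, and their median was −0.27. An unadjusted p under 0.05 was found for 2 of the markers, both lower in Smo-KO livers, as for 7.15% of all genes. These were Dnase1l3, an endonuclease gene, at −0.51 (edgeR adjusted p = 0.288) and Pecam1, which encodes an adhesion molecule of endothelium, at −0.50 (edgeR adjusted p = 0.292). The most abundant marker, the scavenger receptor gene Stab1, had a positive value, 0.29 (edgeR adjusted p = 0.378). The part of these markers in the levels of Bmp6 and Bmp2 was not tested.

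**Figure D2:**
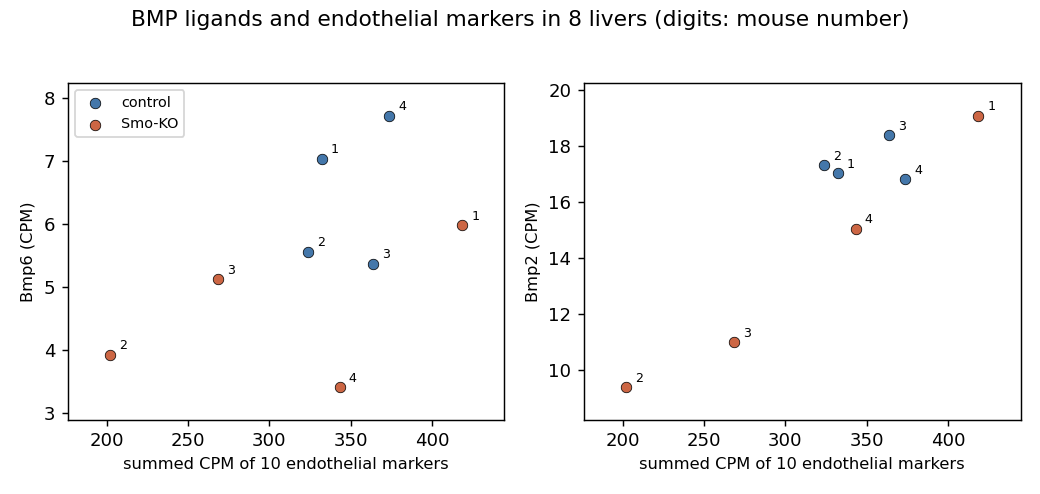
Bmp6 (left) and Bmp2 (right) in CPM against the summed CPM of 10 sinusoidal endothelial markers, 1 point per liver, blue for control and orange for Smo-KO, on axes that do not start at 0. Smo-KO 2 and 3, with marker sums of 202 and 268 CPM, have the lowest Bmp2 levels, 9.38 and 11.0 CPM, whereas the lowest Bmp6 level, 3.41 CPM, is in Smo-KO 4 with a marker sum of 343 CPM.

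Among receptors and transducers, 2 genes had higher values in Smo-KO livers and most others differed little. Acvr2b, which encodes a type II receptor for activins and BMPs, stood at 6.69, 7.23, 6.46 and 6.03 CPM in control livers and at 9.59, 9.27, 11.8 and 10.4 CPM in Smo-KO livers. The groups did not overlap, as for 3.03% of all genes in this direction. Its log2 fold change of 0.64 (SE 0.14, unadjusted p = 6.04e-04) had an edgeR adjusted p of 0.132 and a DESeq2 adjusted p of 0.0333. Smad9, the gene of SMAD8, a receptor-activated SMAD of the BMP branch, stood at 10.5, 7.76, 12.2 and 8.51 CPM in control and at 11.2, 16.0, 17.6 and 14.5 CPM in Smo-KO livers. Only Smo-KO 1 lay within the control range. The log2 fold change was 0.60 (SE 0.18, unadjusted p = 0.00461, edgeR adjusted p = 0.186).

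The remaining receptors and SMAD genes had 95% intervals that included 0. Of 7 receptor genes tested, Acvr2b alone had an unadjusted p under 0.05 (14.3%, against 13.8% of all genes). The type I receptor genes Acvr1 and Acvrl1 had log2 fold changes of −0.14 and −0.12, and the most abundant receptor gene, Eng, the endothelial co-receptor endoglin, one of −0.09. Smad1, another BMP-activated SMAD gene, had −0.06 (95% interval −0.28 to 0.15). Smad4, the partner shared by all SMAD signaling, had −0.02 (95% interval −0.20 to 0.16).

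The genes by which hepatocytes sense iron gave no unadjusted p under 0.05, 0 of 7 tested against 13.8% of all genes. Their median log2 fold change was −0.08. Without Smo-KO 1 the count was 1. Tmprss6, the gene of the protease that cleaves hemojuvelin, was the most abundant at 608 ± 49.0 CPM in control and 567 ± 33.5 CPM in Smo-KO livers (SD of 4 mice each), a log2 fold change of −0.10. Furin, which encodes a proprotein convertase that processes hepcidin, had −0.19, and Neo1, which encodes the hemojuvelin partner neogenin, −0.17. The hemochromatosis genes Hfe, Tfr2 and Hjv, picked out after their values were seen, had log2 fold changes of −0.08, 0.08 and 0.09. Hjv is the gene of hemojuvelin itself. Erfe, the gene of the erythroid hormone that suppresses hepcidin, had at most 1 read in any liver.

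Id1, a commonly used reporter of BMP-SMAD activity, varied more among mice than between groups. It stood at 83.5, 41.7, 32.9 and 72.0 CPM in control livers and at 67.6, 53.8, 40.4 and 52.0 CPM in Smo-KO livers. The control group held both the highest liver, control 1, and the lowest, control 3. Its log2 fold change was −0.10 (SE 0.25, 95% interval −0.64 to 0.44, edgeR adjusted p = 0.891). Smad7, which encodes the inhibitory SMAD that feeds back on the pathway, stood at 47.9, 28.2, 21.4 and 33.9 CPM in control and at 37.7, 33.3, 20.7 and 25.6 CPM in Smo-KO livers. Its groups overlapped throughout, with the third mouse lowest in each. On the log2 scale the difference was −0.16 (SE 0.23, 95% interval −0.65 to 0.34, edgeR adjusted p = 0.799).

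The other BMP-SMAD targets gave a like picture. Of 9 target genes, Hamp, Id1 and Smad7 included, 7 had negative and 2 positive log2 fold changes, where 6507 and 6470 of all genes did. Their median was −0.12, and 0 had an unadjusted p under 0.05. The lowest value was that of Id4, −0.66 (SE 0.34, unadjusted p = 0.0742), at a Smo-KO mean of 1.69 CPM. Smad6, the second inhibitory SMAD gene, had −0.22, Id2 −0.12 and Bambi, the gene of a pseudoreceptor that dampens BMP signals, 0.27. With Smo-KO 1 left out, 2 of the 9 had an unadjusted p under 0.05, as they did without control 1 or Smo-KO 4, and 1 did without control 3. All genes at this threshold numbered 2312, 1935, 1322 and 1372 in these fits, in the same order.

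Of 10 genes for secreted BMP antagonists 6 were tested, with a median log2 fold change of −0.01. Twsg1, the most abundant antagonist gene, had a log2 fold change of 0.04, Fstl1 −0.08 and Bmper, at 1.51 and 1.19 CPM, −0.34. Nog, the gene of noggin, Grem1 and Sostdc1 were listed at 0 in all 8 livers.

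In the BMP and iron-sensing genes together, without the 10 genes described first, 3 of 34 tested had an unadjusted p under 0.05 (8.82%), against 13.8% of all genes. All 3 were higher in Smo-KO livers, Acvr2b and Smad9 among them, as were 6.70% of all genes at this threshold. With Smo-KO 1 left out the count was 7 and with Smo-KO 4 left out 5. All genes at this threshold numbered 2312 and 1322 in these fits, against 1797 with every mouse kept.

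The iron-responsive elements of these genes are shown because they tie ferritin, ferroportin and transferrin receptor to the same sensors. The search in GENCODE M21 transcripts on GRCm38 took a C, 5 bases, the loop CAGTGN and 5 bases pairing with the first 5, and capitals mark the loop. Of 22500 genes with coding sequence, 0.124% held such an element in the 5′ UTR and 0.569% in the 3′ UTR. The elements in the 5′ UTR are at chr19:9982732-9982760 on the plus strand for Fth1, chr7:45459779-45459807 on the minus strand for Ftl1 and chr1:45925465-45925493 on the minus strand for Slc40a1. In the 3′ UTR of Tfrc the search found 4 on the plus strand, of which the one at chr16:32631219-32631247 is printed. Elements that depart from this pattern are missed, so counts here are of matches found. No match was found in Epas1 or Slc11a2, which are counted below among messages known to carry such elements.
Fth1: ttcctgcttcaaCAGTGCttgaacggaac
Ftl1: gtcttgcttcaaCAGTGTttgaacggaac
Slc40a1: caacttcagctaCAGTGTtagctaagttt
Tfrc: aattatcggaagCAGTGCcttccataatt
These elements act mostly on translation for ferritin and ferroportin, which RNA counts do not measure, and on RNA stability for Tfrc.

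Tfrc, the gene of the receptor that takes up transferrin-bound iron, differed between the group means by less than the spread among mice. It stood at 33.5, 38.2, 39.6 and 42.7 CPM in control livers and at 27.7, 38.4, 47.6 and 45.4 CPM in Smo-KO livers. Smo-KO livers held both the lowest level, in Smo-KO 1, and the highest, in Smo-KO 3. The difference was a log2 fold change of 0.04 (SE 0.15, 95% interval −0.28 to 0.37, edgeR adjusted p = 0.926). Trf, the gene of the iron carrier of plasma, stood at 14278, 13170, 13047 and 12480 CPM in control and at 12573, 13046, 11065 and 12045 CPM in Smo-KO livers. Smo-KO 3 was lowest and control 1 highest, and the ranges overlapped. The log2 fold change was −0.12 (SE 0.09, 95% interval −0.32 to 0.08, edgeR adjusted p = 0.597, exact permutation p = 0.114).

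Slc40a1, the gene of ferroportin, stood at 257, 258, 382 and 300 CPM in control livers and at 320, 249, 281 and 299 CPM in Smo-KO livers. Control 3 was the highest of the 8. Its log2 fold change was −0.06 (SE 0.13, 95% interval −0.34 to 0.22, edgeR adjusted p = 0.877). Fth1, for the ferritin heavy chain that oxidizes iron for storage, stood at 2180, 1921, 1807 and 2013 CPM in control and at 2045, 2004, 2168 and 2230 CPM in Smo-KO livers, a log2 fold change of 0.09 (SE 0.09, 95% interval −0.10 to 0.29, edgeR adjusted p = 0.689). The second ferritin gene, Ftl1, for the light chain, stood at 5352, 4503, 4277 and 4712 CPM in control and at 4736, 4573, 4784 and 4819 CPM in Smo-KO livers, a log2 fold change of 0.01 (SE 0.09, 95% interval −0.20 to 0.21, edgeR adjusted p = 0.988). Control 1 was high and control 3 low for both chains, and Smo-KO livers differed less among themselves. Ferritin genes have processed copies in the genome, and how reads shared with them were counted is not given in the sources used here.

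Per length, the 10 genes spanned a wide range. In CPM per kilobase of exons in control livers, Ftl1 was at 4867 and Trf at 4818, followed by Hamp at 1689 and Fth1 at 1271. Slc40a1 followed at 88.8 and Id1 at 49.6. Smad7 at 7.50 and Tfrc at 7.41 were close together, with Hamp2 at 5.21 and Bmp6 at 1.79 last. In Smo-KO livers the values were 4884 for Ftl1, 4432 for Trf, 1903 for Hamp and 1356 for Fth1, with Bmp6 again last at 1.28.

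Among the other genes of iron uptake and storage, Ncoa4 had the smallest p. Ncoa4, the gene of the receptor that delivers ferritin to autophagy so that its iron is released, stood at 59.8, 64.1, 68.7 and 67.3 CPM in control livers and at 48.2, 52.9, 44.9 and 37.7 CPM in Smo-KO livers. All 4 Smo-KO livers were below all controls, as for 4.34% of all genes in this direction. Its log2 fold change was −0.50 (SE 0.11, 95% interval −0.73 to −0.27, unadjusted p = 5.02e-04), with an edgeR adjusted p of 0.126 and a DESeq2 adjusted p of 0.0127. Pcbp1 and Pcbp2, genes of chaperones that load ferritin, had values of −0.08 and −0.13.

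The pair of ZIP transporter genes for iron not bound to transferrin differed in opposite directions. Slc39a14, the gene of ZIP14, the main hepatocyte carrier of this iron, stood at 187, 188, 166 and 197 CPM in control livers and at 236, 246, 224 and 191 CPM in Smo-KO livers. Smo-KO 4 alone lay within the control range. On the log2 scale the difference was 0.28 (SE 0.10, unadjusted p = 0.0127, edgeR adjusted p = 0.244). Slc39a8, the gene of ZIP8, stood at 20.9, 25.5, 23.3 and 21.1 CPM in control and at 19.2, 17.1, 15.1 and 19.0 CPM in Smo-KO livers. Its groups did not overlap, as for 4.34% of all genes in this direction. In log2 terms the difference was −0.36 (SE 0.11, unadjusted p = 0.00750, edgeR adjusted p = 0.217). Of 11 uptake genes tested these were the 2 with an unadjusted p under 0.05 (18.2%, against 13.8% of all genes). The ferrireductase gene Steap2 had −0.23, the endosomal carrier gene Slc11a2 −0.07 and Lrp1, whose protein takes up heme bound to hemopexin, 0.07.

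Iron export and the iron regulatory proteins gave no unadjusted p under 0.05. For export, 0 of 5 tested did so. The ferroxidase gene Cp, the most abundant, had a log2 fold change of −0.06, Heph 0.24 at 2.02 and 2.40 CPM, and the heme and porphyrin exporter gene Abcg2 0.26 (unadjusted p = 0.0827). For the iron regulatory proteins, Aco1 (IRP1) had −0.15, Ireb2 (IRP2) 0.19 and Fbxl5, the gene of the ubiquitin ligase adaptor that removes IRP2 when iron is plentiful, 0.11. Without Smo-KO 1 each of these lists had 1 gene under that p, as did the regulatory proteins without Smo-KO 2. Of 8 messages known to carry iron-responsive elements, Epas1, the gene of HIF-2α, alone had an unadjusted p under 0.05 (12.5%, against 13.8% of all genes). Its log2 fold change was 0.25 (unadjusted p = 0.0393, edgeR adjusted p = 0.333). The count for these messages was 0 without control 1, control 3, Smo-KO 2 or Smo-KO 3, and with the short-gene level as a covariate.

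**Figure D3:**
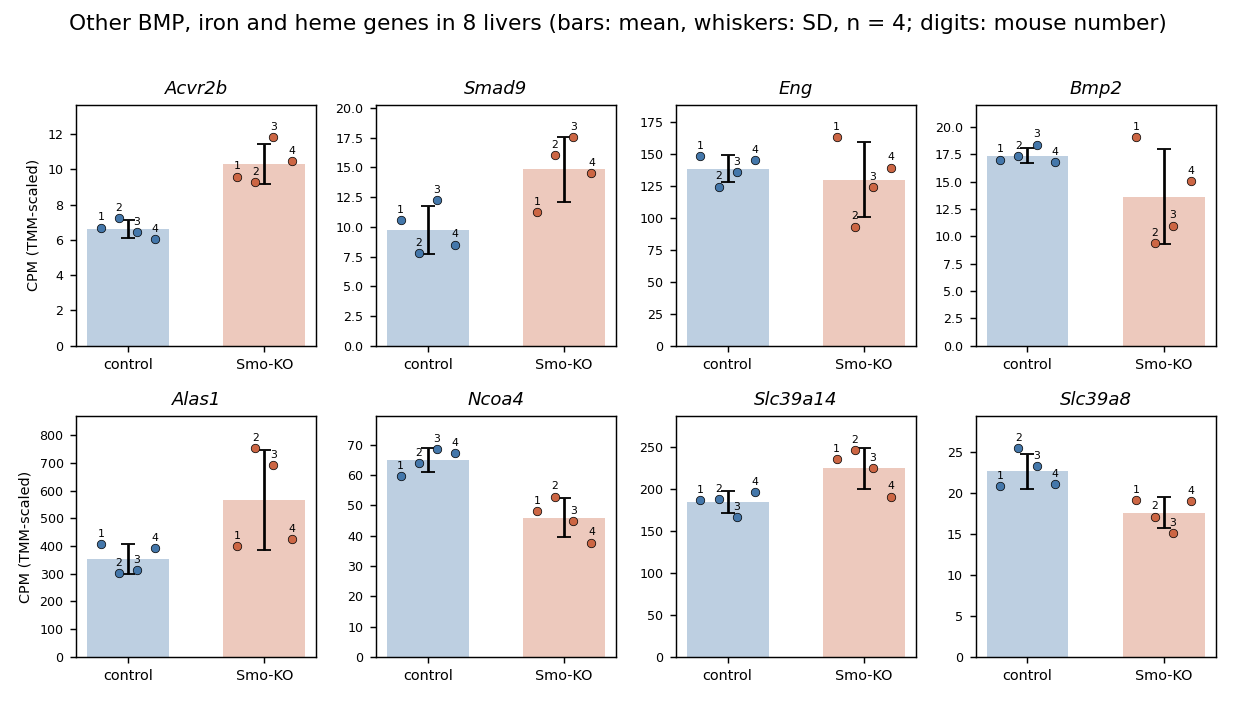
Levels in CPM (vertical axes, linear from 0) of 8 other BMP, iron and heme genes in 4 control and 4 Smo-KO livers, with bars for means, whiskers for SD and points for single mice. The groups do not overlap for Acvr2b, Ncoa4 and Slc39a8, and Smo-KO 1 lies within the control range for Smad9 and Alas1.

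Heme genes opened with Alas1, the rate-limiting enzyme of hepatic heme synthesis. It stood at 407, 303, 313 and 393 CPM in control livers and at 399, 753, 690 and 423 CPM in Smo-KO livers. Smo-KO 2 and 3 were far above the others, Smo-KO 4 was just above the highest control, and Smo-KO 1 was within the control range. In edgeR the log2 fold change was 0.68 (SE 0.19, unadjusted p = 0.00394), with an edgeR adjusted p of 0.176 and a DESeq2 adjusted p of 0.0351. Of the 8 genes of heme synthesis, Alas1 alone had an unadjusted p under 0.05 (12.5%, against 13.8% of all genes). The count was 3 without control 1 and 2 without Smo-KO 2, where all genes numbered 1935 and 1698. The later enzyme genes Urod, Ppox and Alad, the last the most abundant of the 8, had values of 0.16, 0.18 and 0.09. Summed over the 8 genes, the level was 1792 ± 194 CPM in control and 2060 ± 188 CPM in Smo-KO livers (SD of 4 mice each, exact permutation p = 0.0857).

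Hmox1, which encodes the inducible heme oxygenase that frees iron from heme, stood at 109, 86.3, 106 and 108 CPM in control livers and at 101, 68.7, 79.5 and 78.2 CPM in Smo-KO livers. Smo-KO 2, 3 and 4 were below all controls and Smo-KO 1 was above control 2. Its log2 fold change was −0.32 (SE 0.12, unadjusted p = 0.0217, edgeR adjusted p = 0.283). The biliverdin reductase genes Blvra and Blvrb had values of 0.17 and 0.25 (unadjusted p = 0.143 and 0.0621). Of the 4 genes of heme breakdown 1 had an unadjusted p under 0.05 (25.0%, against 13.8% of all genes). With Smo-KO 2 or Smo-KO 4 left out the count was 0. Without Smo-KO 1 it was 3, where all genes at this threshold numbered 2312.

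Mitochondrial genes for iron and iron-sulfur clusters had 15 positive and 4 negative log2 fold changes, where 6470 and 6507 of all genes did. Their median was 0.08. Of the 19, 2 had an unadjusted p under 0.05 (10.5%, against 13.8% of all genes). That count was 5 without control 1, 4 without Smo-KO 2 and 0 with the short-gene covariate, where all genes numbered 1935, 1698 and 1034. It was 1 without control 3, control 4, Smo-KO 3 or Smo-KO 4. Fdx1, the gene of a ferredoxin, had 0.32 (unadjusted p = 0.0140) and Cisd1, for the outer-membrane protein mitoNEET, had 0.27 (unadjusted p = 0.0422), with edgeR adjusted p of 0.248 and 0.339. Slc25a37, which encodes the iron importer mitoferrin-1, had 0.23, and the most abundant, the chaperone gene Hspa9, had −0.17. In the iron and heme genes together, without the 10 described first, 3 of 53 tested had groups that did not overlap (5.66%, against 7.37% of all genes). An unadjusted p under 0.05 was found for 8 of the 53 (15.1%), close to the 13.8% of all genes. That count was 13 without control 1 and 13 without Smo-KO 1. All genes at this threshold numbered 1935 and 2312 in these fits, against 1797 with every mouse kept.

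The inflammatory input to Hamp was measured through IL-6 signaling and acute-phase genes. Il6 itself had at most 4 reads in any liver. Of 9 tested genes of the IL-6 and STAT3 route 0 had an unadjusted p under 0.05, with Il22ra1, the gene of the IL-22 receptor, lowest at −0.34 (unadjusted p = 0.0554), the kinase gene Jak1 at −0.12 and the cytokine gene Il1b at −0.22. That count was 2 without control 1, and 1 without control 4 or without Smo-KO 1. Of 16 acute-phase genes 3 had an unadjusted p under 0.05 (18.8%, against 13.8% of all genes). Lcn2, whose protein binds iron-carrying siderophores, stood at 668, 909, 775 and 834 CPM in control and at 997, 992, 900 and 967 CPM in Smo-KO livers, a log2 fold change of 0.28 (edgeR adjusted p = 0.267). All Smo-KO livers but Smo-KO 3 were above every control.

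The other 2 were Saa1 and Fga. Saa1, for serum amyloid A, stood at 147, 233, 136 and 165 CPM in control and at 134, 541, 190 and 297 CPM in Smo-KO livers, so that its log2 fold change of 0.77 (edgeR adjusted p = 0.331) leaned on Smo-KO 2. Fga, for a fibrinogen chain, had −0.30 (edgeR adjusted p = 0.308). The most abundant, the heme carrier gene Hpx, had −0.03. The acute-phase count was 8 without Smo-KO 1 and 1 without Smo-KO 4, where all genes at this threshold numbered 2312 and 1322.

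Cell-type markers were read beside these values. Of 10 hepatocyte markers 1, Cps1, had an unadjusted p under 0.05, at −0.33 (edgeR adjusted p = 0.218), and their sum, led by Alb, was 38677 ± 2780 CPM in control and 38197 ± 959 CPM in Smo-KO livers (SD of 4 mice each, exact permutation p = 0.771). Tat and Cyp2e1 were the other hepatocyte markers with the smallest p. Kupffer cells and macrophages recycle iron from red cells, and their 10 markers, led by Cd5l, summed to 1619 ± 248 CPM in control and 1616 ± 266 CPM in Smo-KO livers (SD of 4 mice each, exact permutation p = 0.971). Among them Trem2, the gene of a lipid-associated receptor, was higher in all 4 Smo-KO livers at 0.75 (edgeR adjusted p = 0.0957). Stellate markers, led by Dcn, summed to 745 ± 46.0 and 725 ± 108 CPM (SD of 4 mice each). At an unadjusted p under 0.05, 1 of these 10 genes was higher and 1 lower, as were 6.70% and 7.15% of all genes.

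Lymphocyte markers stood apart between the groups. Their sum, led by Nkg7, was 62.3, 65.4, 56.8 and 77.1 CPM in control and 32.4, 28.0, 47.2 and 45.3 CPM in Smo-KO livers, without overlap (exact permutation p = 0.0286, the smallest the design allows). Of 10 such genes 7 were lower in Smo-KO livers at an unadjusted p under 0.05, against 7.15% of all genes, with a median log2 fold change of −0.72. The part of this difference in the levels of iron genes was not tested.

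Cholangiocyte markers, led by Spp1, had 0 of 6 genes at an unadjusted p under 0.05 and a median of 0.26. Erythroid markers bear on Alas2, the erythroid heme enzyme gene with an iron-responsive element, which stood at 111 ± 16.7 CPM in control and 107 ± 16.6 CPM in Smo-KO livers (SD of 4 mice each). The globin genes Hba-a1, Hba-a2, Hbb-bs and Hbb-bt and the gene Epb42 were listed at 0 in all 8 livers. Slc4a1 had at most 2 reads in any liver, and Klf1 had at most 13. Whether an entry of 0, here or for the BMP antagonists, means no RNA or the way reads were counted was not tested.

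The 10 genes were then set against each other across the 8 livers, in 45 pairs by log2 CPM. Fth1 and Hamp gave the 1 pair past the adjusted threshold by Pearson's r, with r = 0.940 (exact permutation p = 8.68e-04, Benjamini-Hochberg adjusted p = 0.0391) and Spearman rho = 0.857 (exact permutation p = 0.0107, adjusted p = 0.161). Without control 2 and 3, the livers farthest from the median of Hamp, r was 0.847, and with each group's mean removed it was 0.925. From plain library totals in place of TMM scaling, r was 0.908 and its adjusted permutation p 0.0709. Id1 and Smad7 gave r = 0.912 (exact permutation p = 0.00231, adjusted p = 0.0519) and rho = 0.929 (exact permutation p = 0.00223, adjusted p = 0.0502). Without control 1 and 3 r was 0.817, and with group means removed 0.921. The 1 pair past the adjusted threshold by Spearman's rho was that of the ferritin chains, Fth1 and Ftl1, with rho = 0.976 (exact permutation p = 3.97e-04, adjusted p = 0.0179) and r = 0.826 (exact permutation p = 0.0100, adjusted p = 0.150). Without control 3 and Smo-KO 4 its r was 0.817, and with group means removed 0.921 (adjusted permutation p = 0.0167). That last p permutes values left after the group means were taken out, and is not exact.

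The correlations of Hamp with the BMP genes did not pass the test. Its r was 0.453 with Id1 (adjusted permutation p = 0.599), 0.153 with Smad7 (0.805) and −0.135 with Bmp6 (0.819). In control livers the order of Hamp from high to low was mouse 1, 4, 2 and 3, and Id1 and Smad7 had the same order. In Smo-KO livers the order of Hamp was mouse 3, 4, 2 and 1, and Id1 and Smad7 had the reverse order. With 4 mice a group, this difference in order was seen after the values were known and was not tested.

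A level computed from short and long genes moved with Hamp and Fth1. It was added after seeing the data, so the tests of it given here were not planned. The short-gene level of a liver was taken as the median log2 deviation of 571 genes with exons under 1000 bases minus that of 4767 genes of 4000 bases or more, and Hamp has exons of 410 bases. It was 0.07, −0.22, −0.14 and −0.01 in control livers and −0.05, −0.04, 0.17 and 0.22 in Smo-KO livers (exact permutation p for the groups 0.200). Among the 10 genes, each set against this level, its r was 0.938 with Hamp (rho 0.952, exact permutation p = 0.00104, adjusted p = 0.0104, and r = 0.955 without control 2 and Smo-KO 4) and 0.898 with Fth1 (rho 0.881, exact permutation p = 0.00308, adjusted p = 0.0154, and r = 0.905 without the same livers). It was 0.614 with Ftl1, 0.262 with Id1 and −0.06 with Smad7.

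With the short-gene level as a covariate, added after seeing the data, the log2 fold changes were −0.04 for Hamp, −0.00 for Fth1 and −0.51 for Bmp6, the last with an unadjusted edgeR p of 0.0692. With its linear trend removed, r of Fth1 and Hamp was 0.637 (adjusted permutation p = 0.205) and r of Id1 and Smad7 was 0.962 (adjusted permutation p = 0.00558). These p permute values left after the trend was taken out, and are not exact. RNA quality and fragment length of the libraries are not given in the sources used here. Whether the short-gene level came from the libraries or from the livers was not tested.

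**Figure D4:**
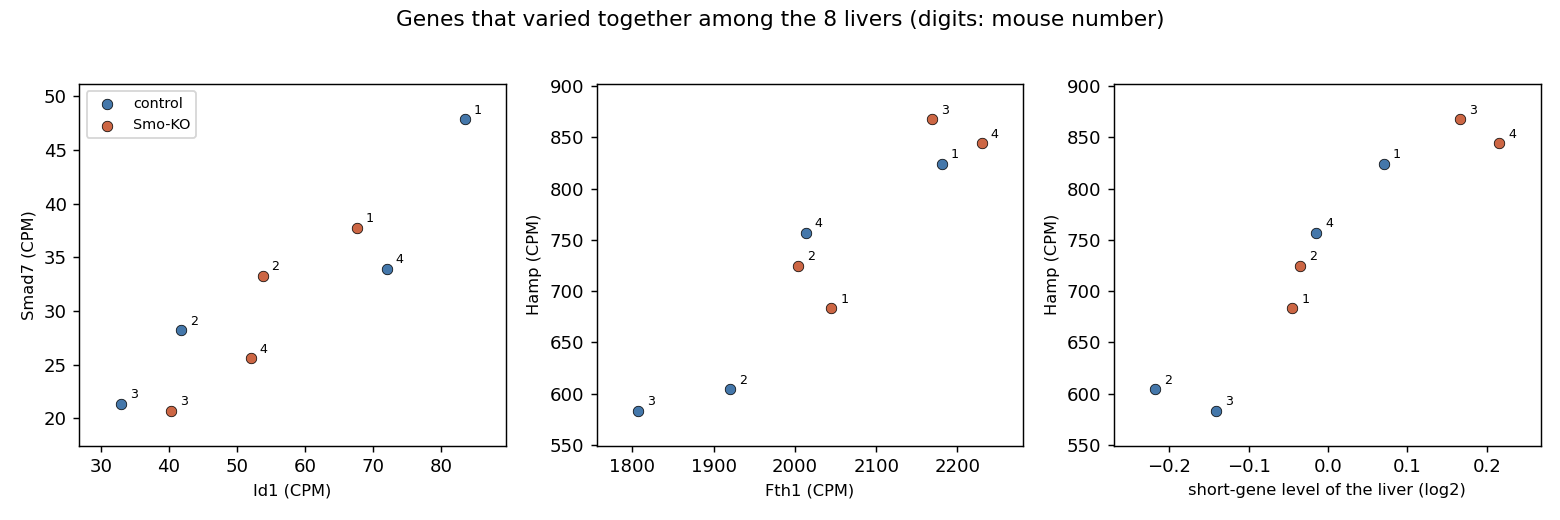
Smad7 against Id1 (left) and Hamp against Fth1 (middle), all in CPM, and Hamp in CPM against the short-gene level of the liver in log2 units (right), 1 point per liver, blue for control and orange for Smo-KO, on axes that do not start at 0. The points rise from lower left to upper right in each panel, with r on log2 CPM of 0.912, 0.940 and 0.938.

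Genes outside the circuit with profiles most like those of Hamp, Id1 and Tfrc were sought among 10786 tested genes with a mean of at least 5 CPM, by r of log2 CPM over the 8 livers. For Hamp they were Mettl26 (r = 0.979), Mthfsl (0.976) and Pfdn2 (0.968). For Id1 they were Cradd (0.978), Acp6 (0.970) and Ppif (0.968), and for Tfrc they were Ube2e3 (0.940), Rbmxl1 (0.939) and Snrpd1 (0.933). The points share libraries and depth, and these are the highest of many values, so no p is given.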

How the data were processed

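RNA was extracted from whole liver with Trizol, made into libraries with a NEB Next Ultra kit and sequenced on a NovaSeq. The authors deposited whole-number counts of reads per gene symbol for each of 8 livers. The submitters' processing notes name fastp, STAR 2.7.5, featureCounts 2.0.1 and GRCm38, and the lists end in the entries that htseq-count writes. The annotation and use of strand are not given in the sources used here. Entries that name no gene (on no feature, 8.33% and 9.23% of reads in control and Smo-KO livers, and ambiguous, 2.55% and 2.51%) were left out.

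From these counts, edgeR 4.0.16 in R 4.3.3 (filterByExpr, TMM, estimateDisp, glmQLFit, glmQLFTest, genotype alone) tested 12977 genes with Benjamini-Hochberg adjustment. Single levels were compared by exact permutation tests, two-sided, over 70 assignments. Log2 CPM used a prior count of 2. Correlations were tested exactly over 40320 pairings. Where group means or the short-gene trend were removed first, the same pairings were used and the p is not exact. The fit was also tested on simulated data, and no result of that test is given here. No pair of libraries in a group was a copy of another (chi-square of at least 7.76 per degree of freedom). No source says that the mice of a group came from separate litters or days, so p-values measure the spread between these mice.

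Genes named were the 10 genes, Smo, the 3 of each list with the smallest p and its most abundant, the 3 most like Hamp, Id1 and Tfrc, and those said to be chosen after their values were seen or given for few or no reads. The 10 genes and the lists were chosen with earlier results of these data known. The symbol Ahsp was not analysed here. Results of 3 single genes are not reported here, although counts over lists include them. Alternatives were RLE size factors, DESeq2 1.42.0, no filter or at least 10 counts in every liver, each mouse left out, a block for the replicate number, hepcidin reads summed, plain totals, a prior count of 0.5, group means removed and, added after seeing the data, the short-gene level.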

Additional observations from a re-analysis of the deposited data

Results flagged for a closer look

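In each group of 4 livers, 1 mouse was looked for whose distance to the nearest other exceeds Dixon's 95% critical value as a share of the group's range. Of 178 groups examined 11 had one, where chance gives about 1 in 20, or 8.90. Control 1 was high for Alad (1008 CPM, others 757 to 792), Bmp4 (8.85 CPM, others 6.16 to 6.50), Furin (373 CPM, others 307 to 314), Id2 (232 CPM, others 192 to 199), Pcbp2 (160 CPM, others 146) and the lymphocyte marker Cd8a (11.0 CPM, others 9.44 to 9.54). Control 2 was low for Gdf2 (28.6 CPM, others 38.2 to 39.8) and Hmox1 (86.3 CPM, others 106 to 109). Control 3 was high for Heph (2.68 CPM, others 1.78 to 1.81). Smo-KO 1 was high for Slc11a2 (79.3 CPM, others 69.6 to 71.2) and for the bile duct marker Sox9 (13.7 CPM, others 8.94 to 9.76).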

How the results depend on the processing

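Of 580 values recomputed under alternatives, 478 kept their direction and their side of the threshold or moved by less than the allowed margin, 63 moved more, 34 changed sign, 3 newly passed a threshold and 2 no longer did. No scaling shifted the median over all genes by more than 0.1 (log2). Genes at an adjusted p under 0.05 numbered 0 in the edgeR fit (1797 unadjusted), 0 with RLE factors, at least 10 counts or the short-gene level, 163 by DESeq2 and 61 without the low-count filter, and 0 to 78 with a mouse left out (78 without Smo-KO 1, 5 without control 1, 4 without Smo-KO 3). Genes at an unadjusted p under 0.05 numbered 1034 with the short-gene level and 1233 to 2312 with a mouse left out. Among the 10 genes the count was 0 with the short-gene level and 0 to 1 with a mouse left out (0 without control 4, Smo-KO 2 or Smo-KO 4, and Hamp in place of Bmp6 without control 1). In the iron and heme lists it was 5 with the short-gene level and 6 to 13 with a mouse left out, and in the BMP and iron-sensing lists 3 to 7.

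With the short-gene level as a covariate the log2 fold changes of Hamp (−0.043), Tfrc (−0.12), Fth1 (−0.00046) and Ftl1 (−0.073) changed sign. With a mouse left out, the log2 fold change ran from −0.60 to 0.038 for Hamp2 (positive without Smo-KO 3), from −0.29 to 0.13 for Id1 (positive without control 1, control 4 or Smo-KO 3), from −0.31 to 0.079 for Smad7 (positive without control 1), from −0.052 to 0.19 for Tfrc (negative without control 1, Smo-KO 3 or Smo-KO 4), from −0.13 to 0.085 for Slc40a1 (positive without control 3 or Smo-KO 2) and from −0.034 to 0.072 for Ftl1 (negative without control 2, control 3, Smo-KO 3 or Smo-KO 4). In those fits the exact permutation p ran from 0.143 to 0.914, 0.343 to 0.971, 0.343 to 0.943, 0.171 to 0.971, 0.543 to 1.00 and 0.114 to 0.971, in the same order. Hamp stayed between 0.10 and 0.27, Bmp6 between −0.63 and −0.35, Trf between −0.16 and −0.08 and Fth1 between 0.06 and 0.14. The cause was not tested. Pairs of genes at an adjusted correlation p under 0.05 numbered 0 with plain totals and 4 with group means removed, where r of Hamp and Bmp6 was 0.248, and that r was 0.539 with the short-gene trend removed. The planned sum of the ferritin genes with their copies was not run.

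No source says that the replicate numbers of the labels pair the mice. Same-numbered livers correlated by 0.104, 0.187, 0.0611 and 0.113 in their deviations from group means, all above 0 but not all above 0.1, so the numbers were not used as pairs. Controls 2, 3 and 4 and Smo-KO 1 and 2 correlated best with their own number, while control 1 did so with Smo-KO 4 (0.157) and Smo-KO 3 with control 2 (0.133), which is a hint of pairing from the data and not from the design. With the number as a block 8 genes had an adjusted p under 0.05 and 2115 an unadjusted one. The unadjusted counts were 6 for acute-phase genes, 1 each for BMP-SMAD targets, iron export and the regulatory proteins, 2 for heme breakdown and 3 for the mitochondrial list. The log2 fold changes of Hamp (0.18), Bmp6 (−0.49) and Id1 (−0.04) stayed uncalled. Depth limits Hamp2 and Bmp6 most, with as few as 8 and 32 reads in a liver.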
